A study of Mus musculus with 12 samples.

Results

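The genes examined here are 10 enzymes and helper proteins that turn membrane arachidonic acid into prostaglandins and leukotrienes, chosen by name as the synthesis steps of these pathways from the 21834 protein-coding genes of the deposited table. They are Pla2g4a, Ptgs1, Ptgs2, Ptges, Ptges3, Hpgds, Alox5, Alox5ap, Lta4h and Ltc4s, and all 10 were found in the table. Their RNA was measured in BV2, an immortalized mouse microglial cell line, in 4 groups of 3 libraries. One line carried a control shRNA (shCtrl). The other line carried an shRNA against the gene of annexin A2, a calcium-dependent membrane-binding protein (shAnxa2). Each was left untreated (CTRL) or taken through oxygen-glucose deprivation and reoxygenation (OGD/R), a culture model of ischemia and reperfusion. Deprivation lasted 4 h and reoxygenation 12 h by the labels, while the study's methods give a longer reoxygenation for BV2 cells. Both lines were made by lentiviral transduction and puromycin selection, with 1 line and 1 shRNA per arm, so effects of the shRNA, of the line and of lower Anxa2 cannot be told apart. The groups follow the sample names, in which line and treatment are joined (shCtrl-OGDR for treated control cells). Another label calls all treated samples knockdown and all untreated samples WT. The level of Anxa2 went with the line in the names. It does not check the treatment, which rests on the names alone.

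Arachidonic acid is cut from membrane phospholipids by phospholipase A2. Cyclooxygenases turn it into prostaglandin H2, which terminal synthases convert to prostaglandin E2, prostaglandin D2 and other prostanoids, whereas 5-lipoxygenase and its partners turn it into leukotriene A4, the precursor of leukotriene B4 and leukotriene C4. Microglia are the resident macrophages of the brain, and prostaglandin E2 made through the inducible cyclooxygenase is a known product of inflamed microglia.

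Total counts per library ranged from 19521877 to 27288843. Levels in CPM are counts scaled by each library's total over the genes that passed the filter on low counts and by edgeR's TMM factors. Anxa2 was at 165 to 177 CPM in shCtrl-CTRL and 251 to 295 in shCtrl-OGDR, against 35.0 to 44.4 in shAnxa2-CTRL and 18.2 to 20.6 in shAnxa2-OGDR. All 10 microglia and macrophage markers examined passed the filter on low counts, with a summed level of 1504 to 1896 CPM per library, although Aif1, Cx3cr1, Tmem119 and P2ry12 stayed at or below 10.7 CPM in each library. None of 5 mast cell and 5 neutrophil markers, of cells known for leukotriene synthesis, passed the filter. Their summed levels were at most 0.626 and 0.437 CPM per library, and Fcer1a, Ms4a2, Mcpt4, Ly6g and S100a9 had no counts in any library. Of 5 markers each, 0 of astrocytes and 1 of neurons (Tubb3) passed the filter. One library stood apart in a single gene, since shAnxa2-OGDR replicate 1 held 66525 counts of Lars2 and the other libraries 389 to 2670. No call named below for the OGD/R effect in either line was lost without that library.

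The promoters of the genes with the most contrasting patterns are shown from RefSeq (GRCm38.p6). Ptgs2 fell after OGD/R in both lines, with a call in shAnxa2 cells that rested on single libraries. Ptges and Ptges3, which act at the same step, moved in opposite directions to each other. Each stretch holds the 250 bases before and the 50 bases from the gene's start, read 5′ to 3′ on the gene's strand. The Ptgs2 stretch is chr1:150099781-150100080 on the plus strand, the Ptges stretch is chr2:30903248-30903547 on the minus strand, and the Ptges3 stretch is chr10:128058732-128059031 on the plus strand. Capitals mark every match to the motifs searched.
Ptgs2: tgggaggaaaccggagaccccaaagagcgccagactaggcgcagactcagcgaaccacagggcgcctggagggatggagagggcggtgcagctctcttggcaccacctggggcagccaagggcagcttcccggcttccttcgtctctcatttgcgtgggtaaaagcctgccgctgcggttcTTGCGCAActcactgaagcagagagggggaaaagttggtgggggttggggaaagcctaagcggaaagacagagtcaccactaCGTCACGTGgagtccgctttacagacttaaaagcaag
Ptges: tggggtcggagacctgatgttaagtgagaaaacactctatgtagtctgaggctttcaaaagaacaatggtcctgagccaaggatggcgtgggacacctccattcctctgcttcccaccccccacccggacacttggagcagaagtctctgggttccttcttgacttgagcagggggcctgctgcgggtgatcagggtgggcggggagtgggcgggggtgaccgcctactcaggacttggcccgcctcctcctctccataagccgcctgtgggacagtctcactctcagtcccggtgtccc
Ptges3: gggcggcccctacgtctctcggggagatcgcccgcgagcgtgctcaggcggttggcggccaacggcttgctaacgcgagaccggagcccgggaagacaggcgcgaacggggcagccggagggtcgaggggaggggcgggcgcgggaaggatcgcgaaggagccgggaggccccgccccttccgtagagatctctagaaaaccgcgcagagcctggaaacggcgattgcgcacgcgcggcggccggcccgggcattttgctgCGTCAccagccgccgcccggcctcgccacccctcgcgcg

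The search covered both strands for GGGNNTTTC and GGGNATTCC (forms of the NF-κB site), the palindrome TGACGTCA and its shorter form TGACG (cyclic AMP response element), TTGCGCAA (C/EBP), TGANTCA (AP-1), ACGTG (the core of the hypoxia response element), CACGTG (E-box) and TATAAA. Ptgs2 held TTGCGCAA from 69 bases before the start, a motif present in 0.183% of the 32851 promoters of this length, and, from base 13 onwards, a match to TGACG that overlaps matches to ACGTG on both strands and to the E-box, with base 0 at the start. TGACG was present in 20.8% of all promoters, ACGTG in 19.6% and CACGTG in 7.15%. Ptges3 held 1 TGACG, and Ptges held none of the motifs. Of the 10 genes, 9 had an entry in the table, Alox5ap being the exception. In the other 6 with an entry, the only match was 1 TATAAA in the second of the 2 promoters of Pla2g4a (13.6% of all promoters). These matches describe letters in the window.

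In levels per length (CPM per kilobase of annotated exons), the genes spanned a wide range. Averaged over the 12 libraries, Ptges3 was at 50.1, Alox5ap at 30.9, Pla2g4a at 21.4, Ptgs1 at 18.9, Hpgds at 14.8, Lta4h at 13.03, Ptgs2 at 7.44, Ltc4s at 3.52, Ptges at 0.982 and Alox5 at 0.0444. Ptges3 was above 91.4% of the tested genes on this scale and Ptges above 16.4%. The pathway was thus unevenly represented, with the partner protein of 5-lipoxygenase among the most abundant members and the lipoxygenase itself close to absent.

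**Figure D1:**
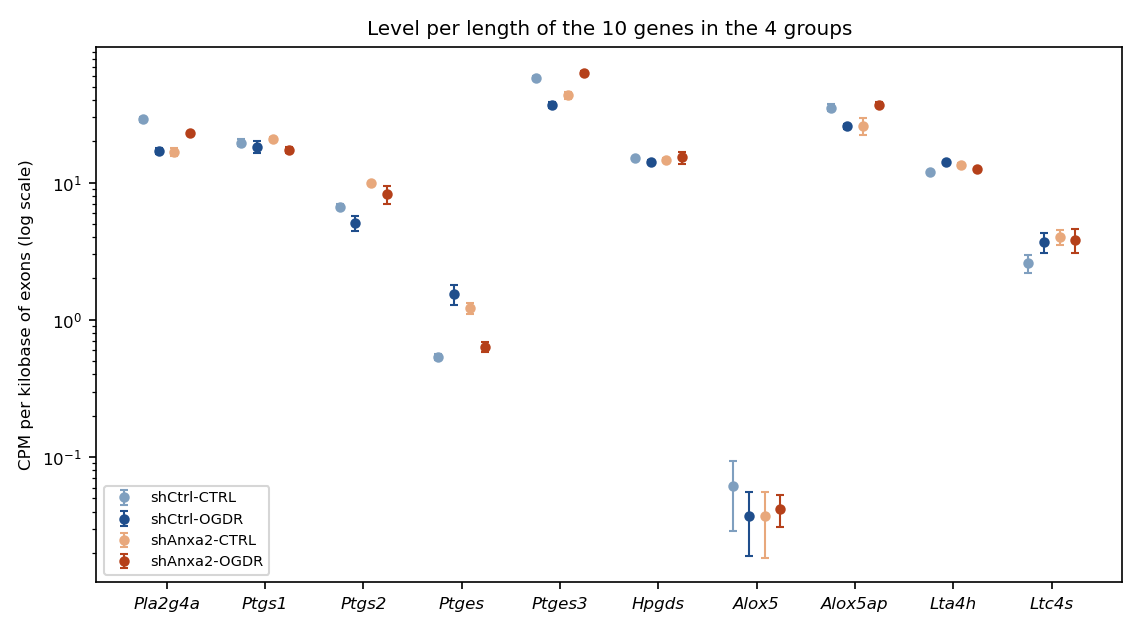
Mean level per length (CPM per kilobase of exons, log axis) of the 10 genes in the 4 groups, with bars of 1 SD over 3 libraries. Alox5 lies below 0.1 in every group, and Ptges is the only gene that crosses 1 between groups.

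Of the 10 genes, 9 passed the filter of 0.5 CPM in at least 3 libraries and were tested. They were compared in 1 edgeR quasi-likelihood model over the 12 libraries, with Benjamini-Hochberg adjustment over the 11626 genes tested and a call at an adjusted p under 0.05. After OGD/R in shCtrl cells, Ptges, Ltc4s and Lta4h rose and Pla2g4a, Ptgs2, Ptges3 and Alox5ap fell, while Ptgs1 and Hpgds were not called. So many genes changed in these cells that 7 of 9 calls stand against a background of 63.4% of all genes tested, of which 32.4% rose and 31.0% fell. In shAnxa2 cells, OGD/R gave the reverse for several of them: Pla2g4a, Ptges3 and Alox5ap rose, and Ptges, Ptgs1 and Ptgs2 fell, 6 of 9 against a background of 55.0% (28.2% risen, 26.8% fallen). The study asked how loss of Anxa2 alters the transcriptome of microglial cells after OGD/R, and the members are described in the order of the pathway, each in all 4 groups.

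**Figure D2:**
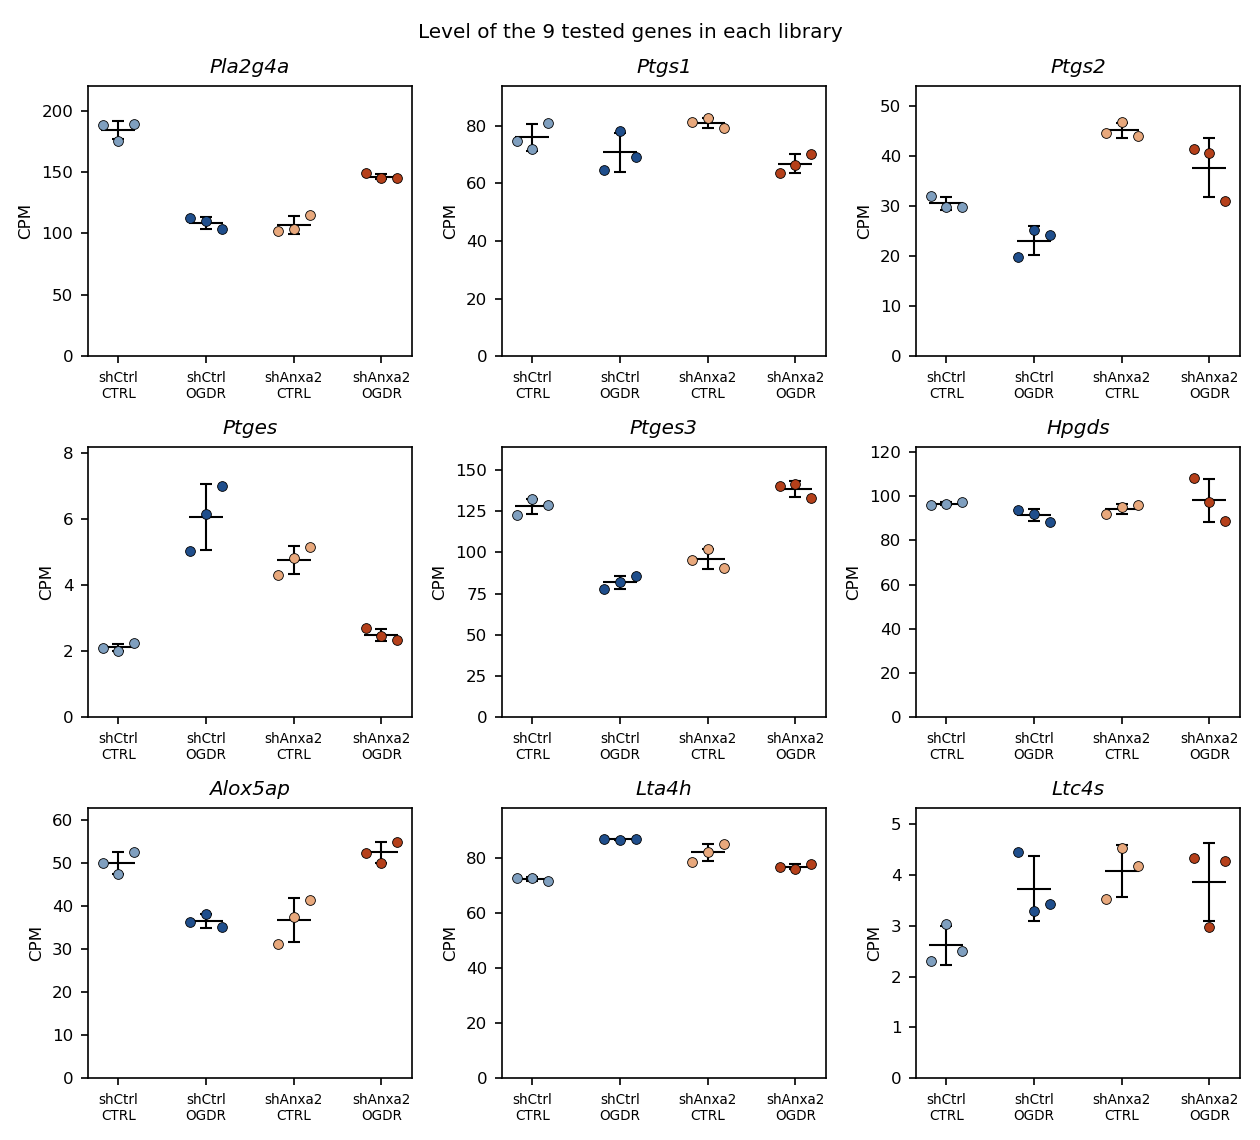
Level (CPM, linear axes from 0) of the 9 tested genes in each library of the 4 groups, where points are libraries and the line and bars are the mean and 1 SD of 3 libraries. Pla2g4a, Ptges3 and Alox5ap are high in shCtrl-CTRL and shAnxa2-OGDR, Ptges is low in those groups, and Ptgs2 is highest in shAnxa2-CTRL.

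Pla2g4a encodes cytosolic phospholipase A2 alpha, the calcium-dependent enzyme that releases arachidonic acid (ENSMUSG00000056220, chromosome 1, 149705369 to 149837041, minus strand, in the mm39 coordinates of the deposited table, as for the genes below). It was at 189, 176 and 189 CPM in shCtrl-CTRL, at 112, 110 and 103 in shCtrl-OGDR, at 102, 104 and 115 in shAnxa2-CTRL and at 149, 145 and 145 in shAnxa2-OGDR. The untreated shCtrl libraries were the highest, shAnxa2-OGDR lay below them without overlap, and the other groups overlapped each other. OGD/R lowered Pla2g4a in shCtrl cells (log2 fold change -0.76 ± 0.05 (SE), adjusted p = 4.68e-12) and raised it in shAnxa2 cells (0.45 ± 0.05, adjusted p = 9.96e-08). Knockdown lowered it without OGD/R (-0.78 ± 0.05, adjusted p = 4.47e-12) and raised it after OGD/R (0.43 ± 0.05, adjusted p = 8.27e-08). The interaction of the same model, which is the OGD/R change in shAnxa2 cells minus that in shCtrl cells, was 1.21 ± 0.07 (adjusted p = 3.04e-13). Even so, shAnxa2-OGDR did not come back to the shCtrl-CTRL level and stayed 0.33 ± 0.05 lower on the log2 scale (log2 fold change -0.33, adjusted p = 1.36e-05, a comparison added after the data were seen). Bulk RNA gives a mean over the culture, so fewer cells of a type and less RNA per cell cannot be told apart here or below.

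Of the cyclooxygenases, Ptgs2 fell after OGD/R in both lines and Ptgs1 in shAnxa2 cells. Ptgs1 encodes cyclooxygenase-1, the constitutive form, which also marks microglia in the brain (ENSMUSG00000047250, chromosome 2, 36120438 to 36142284, plus strand). It was at 74.8, 71.8 and 81.1 CPM in shCtrl-CTRL, 64.7, 78.1 and 69.2 in shCtrl-OGDR, 81.1, 82.6 and 79.1 in shAnxa2-CTRL and 63.7, 66.3 and 70.3 in shAnxa2-OGDR. The shAnxa2 groups did not overlap, whereas the shCtrl groups did. Its fall after OGD/R passed the test in shAnxa2 cells (-0.28 ± 0.06, adjusted p = 0.000699), and the shCtrl value was -0.10 ± 0.06 (adjusted p = 0.161). The difference between these changes was not called (-0.18 ± 0.09, adjusted p = 0.0834), nor was an effect of knockdown without OGD/R (0.09 ± 0.06, adjusted p = 0.208) or after it (-0.08 ± 0.06, adjusted p = 0.255). Single libraries moved these calls. The shCtrl value passed the test without shCtrl-OGDR replicate 2 (-0.18, adjusted p = 0.0177), and the knockdown value after OGD/R without shCtrl-OGDR replicate 1 (-0.15, adjusted p = 0.046). The interaction passed it without shCtrl-CTRL replicate 3 (-0.24, adjusted p = 0.026), shCtrl-OGDR replicate 1 (-0.25, adjusted p = 0.0146) or shAnxa2-OGDR replicate 3 (-0.23, adjusted p = 0.0323), and with no filter on low counts (-0.20, adjusted p = 0.0308). Of its 3884 exon bases in GENCODE, 148 are shared with Gm43621 on the opposite strand, whose reads cannot be told apart without strand.

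Ptgs2 encodes cyclooxygenase-2, the inducible form that inflammatory stimuli raise in macrophages (ENSMUSG00000032487, chromosome 1, 149975782 to 149983978, plus strand), and it is the gene whose promoter above carries the C/EBP and E-box matches. It was at 32.0, 29.8 and 29.7 CPM in shCtrl-CTRL, 19.8, 25.2 and 24.2 in shCtrl-OGDR, 44.5, 46.8 and 43.9 in shAnxa2-CTRL and 41.4, 40.5 and 30.9 in shAnxa2-OGDR. Within each line the treated libraries lay below the untreated ones, and within each treatment the shAnxa2 libraries lay above the shCtrl ones. OGD/R lowered Ptgs2 in shCtrl cells (-0.40 ± 0.09, adjusted p = 0.000669) and in shAnxa2 cells (-0.26 ± 0.09, adjusted p = 0.0172). The call in shAnxa2 cells rested on single libraries, since it was lost without shAnxa2-OGDR replicate 3, the lowest of its group (-0.14, adjusted p = 0.14), and without shAnxa2-CTRL replicate 2, the highest of its group (-0.23, adjusted p = 0.0619). Knockdown raised Ptgs2 without OGD/R (0.56 ± 0.09, adjusted p = 8.91e-06, a 1.48-fold difference) and after OGD/R (0.71 ± 0.09, adjusted p = 4.21e-07, 1.63-fold). The direction after OGD/R is opposite to the study's RT-qPCR, which is reported to show attenuated COX2 (Ptgs2) expression with knockdown in BV2 cells. The study's methods give BV2 cells a longer reoxygenation than the 12 h on the labels of these libraries. Whether the reoxygenation time bears on the opposite directions was not tested. The interaction was not called (0.14 ± 0.13, adjusted p = 0.333), and without shAnxa2-OGDR replicate 3 it was 0.25 (adjusted p = 0.0465).

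Ptgs2 was the single member called after OGD/R in both lines in the same direction, although its call in shAnxa2 cells rested on single libraries. Such genes were rare among all those tested, 74 of 11626 (0.637%), whereas 44.4% were called in both lines in opposite directions, as Pla2g4a, Ptges, Ptges3 and Alox5ap were. The 4 Ptgs2 group means followed the order shAnxa2-CTRL, shAnxa2-OGDR, shCtrl-CTRL and shCtrl-OGDR, and each neighbouring pair differed by the test, although the ranges of shAnxa2-OGDR and shCtrl-CTRL overlapped. Ptgs1 moved less than Ptgs2 in shCtrl cells, and the ratio of Ptgs1 to Ptgs2 per length was 2.94 ± 0.24 (SD, n = 3) in shCtrl-CTRL, 3.63 ± 0.24 in shCtrl-OGDR, 2.12 ± 0.03 in shAnxa2-CTRL and 2.14 ± 0.47 in shAnxa2-OGDR. Every shCtrl library had a higher ratio than every shAnxa2 library, with the lowest shCtrl value at 2.76 and the highest shAnxa2 value, in replicate 3 after OGD/R, at 2.68.

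**Figure D3:**
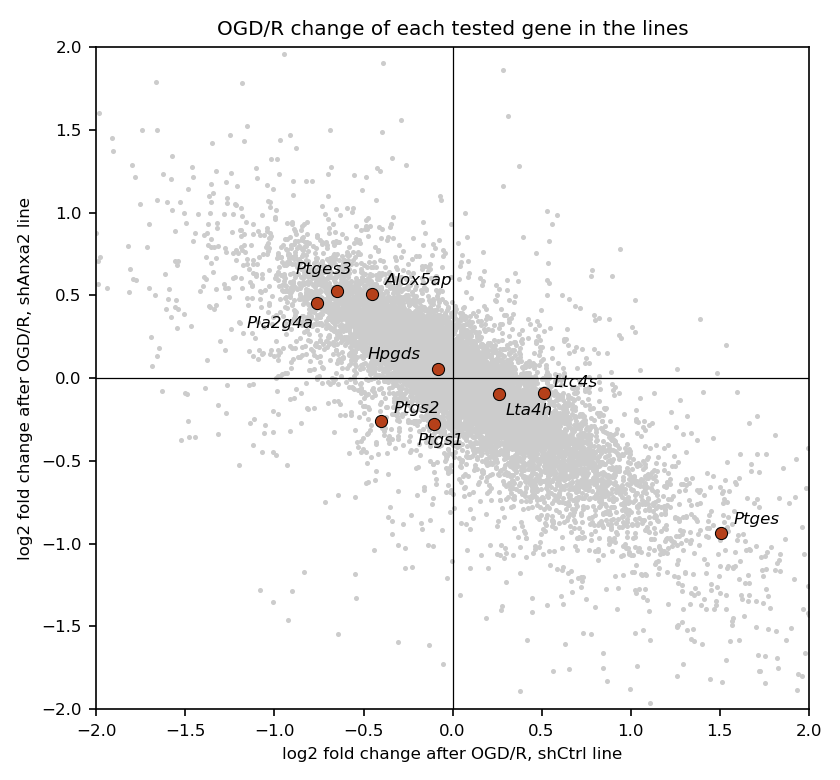
Log2 fold change after OGD/R in shCtrl cells (x axis) and in shAnxa2 cells (y axis) for the 9 tested members (labelled) and the other tested genes (grey), without the 136 genes beyond 2 in size on either axis. Most genes run from upper left to lower right, as Pla2g4a, Ptges3, Alox5ap and Ptges do, and Ptgs2 and Ptgs1 lie in the lower left, where both changes are negative.

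Of the prostaglandin E synthases, the members Ptges and Ptges3 differed from each other in level and direction. Ptges encodes microsomal prostaglandin E synthase-1, the inducible enzyme that is known to work with cyclooxygenase-2 (ENSMUSG00000050737, chromosome 2, 30779483 to 30819875, minus strand). It was at 2.09, 2.02 and 2.24 CPM in shCtrl-CTRL, 5.05, 6.15 and 7.02 in shCtrl-OGDR, 4.30, 4.81 and 5.16 in shAnxa2-CTRL and 2.70, 2.46 and 2.33 in shAnxa2-OGDR. These levels rest on 48 to 161 counts per library. The treated shCtrl and the untreated shAnxa2 libraries were the high ones and overlapped each other, and all were above the remaining 6. OGD/R raised Ptges 2.85-fold in shCtrl cells (1.51 ± 0.16 on the log2 scale, adjusted p = 1.66e-08) and lowered it 1.91-fold in shAnxa2 cells (-0.93 ± 0.17, adjusted p = 5.16e-05). Knockdown raised it without OGD/R (1.17 ± 0.17, adjusted p = 2.00e-06) and lowered it after OGD/R (-1.27 ± 0.16, adjusted p = 2.24e-07). The interaction was -2.44 ± 0.23 (adjusted p = 1.52e-09), the largest in size among the 9 genes. Between the lower groups, shAnxa2-OGDR and shCtrl-CTRL, no difference was called (0.24 ± 0.19, adjusted p = 0.331). Ptges was also the member past a log2 fold change of 1 in size with an unadjusted p under 0.05 after OGD/R in shCtrl cells (6.86% of genes tested), with knockdown without OGD/R (5.81%) and with knockdown after it (10.2%). No member passed this limit after OGD/R in shAnxa2 cells (3.80% of genes tested), and for the interaction Ptges, Pla2g4a and Ptges3 did (21.7%).

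Ptges3 encodes cytosolic prostaglandin E synthase, also known as p23, a cochaperone of Hsp90 with a broad expression (ENSMUSG00000071072, chromosome 10, 127894823 to 127913141, plus strand). Its levels were 123, 132 and 129 CPM in shCtrl-CTRL, 77.9, 81.9 and 85.6 in shCtrl-OGDR, 95.6, 102 and 90.5 in shAnxa2-CTRL and 140, 142 and 133 in shAnxa2-OGDR. No pair of groups overlapped, and shCtrl-OGDR was the lowest. OGD/R lowered Ptges3 in shCtrl cells (-0.65 ± 0.05, adjusted p = 1.37e-10) and raised it in shAnxa2 cells (0.53 ± 0.05, adjusted p = 1.12e-08). Knockdown lowered it without OGD/R (-0.41 ± 0.05, adjusted p = 3.09e-07) and raised it after OGD/R (0.76 ± 0.05, adjusted p = 5.74e-12), with an interaction of 1.17 ± 0.07 (adjusted p = 8.49e-13). The processed pseudogene Ptges3-ps shares a stretch of 480 identical bases with the 2000-base Ptges3 transcript, so reads from that stretch are uncertain.

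The balance between Ptges3 and Ptges shifted with line and treatment. Ptges2, a further prostaglandin E synthase, had a mean of 57.3 CPM. Its OGD/R change was not called in shCtrl cells (0.02) or shAnxa2 cells (0.12), nor was its interaction (0.10, adjusted p = 0.269). Knockdown raised Ptges2 without OGD/R (0.21, adjusted p = 0.00206) and after it (0.31, adjusted p = 2.78e-05). Per length, the ratio of Ptges3 to Ptges was 107 ± 7.67 (SD, n = 3) in shCtrl-CTRL, 24.2 ± 2.93 in shCtrl-OGDR, 36.0 ± 4.39 in shAnxa2-CTRL and 98.4 ± 5.55 in shAnxa2-OGDR. In the 6 libraries of shCtrl-OGDR and shAnxa2-CTRL it ran from 21.6 to 39.4, and in the remaining 6 from 92.0 to 116. The inducible pair Ptgs2 and Ptges moved in opposite directions with OGD/R in shCtrl cells (-0.40 and 1.51) and with knockdown after OGD/R (0.71 and -1.27). They moved in the same direction with OGD/R in shAnxa2 cells (-0.26 and -0.93) and with knockdown without OGD/R (0.56 and 1.17).

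Hpgds encodes hematopoietic prostaglandin D synthase, which microglia are known to express (ENSMUSG00000029919, chromosome 6, 65094277 to 65121892, minus strand). It was at 96.0, 96.7 and 97.4 CPM in shCtrl-CTRL, 93.6, 92.2 and 88.4 in shCtrl-OGDR, 91.9, 95.05 and 96.2 in shAnxa2-CTRL and 108, 97.4 and 88.7 in shAnxa2-OGDR. The shAnxa2-OGDR libraries had the widest spread and overlapped each other group, and their highest value was in the library with the high Lars2 count. Hpgds was the one tested member without a call in any of the 5 comparisons, with log2 fold changes of -0.08 ± 0.06 and 0.05 ± 0.06 after OGD/R in shCtrl and shAnxa2 cells, -0.03 ± 0.06 and 0.10 ± 0.06 with knockdown before and after OGD/R, and an interaction of 0.13 ± 0.08 (adjusted p from 0.117 to 0.622). Without shAnxa2-OGDR replicate 3, its knockdown value after OGD/R (0.16, adjusted p = 0.0116) and its interaction (0.19, adjusted p = 0.0232) passed the test. Its transcript carries a stretch of 120 bases at 95% identity or more in several other genes, among them Mtif2 and Sirt5.

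**Figure D4:**
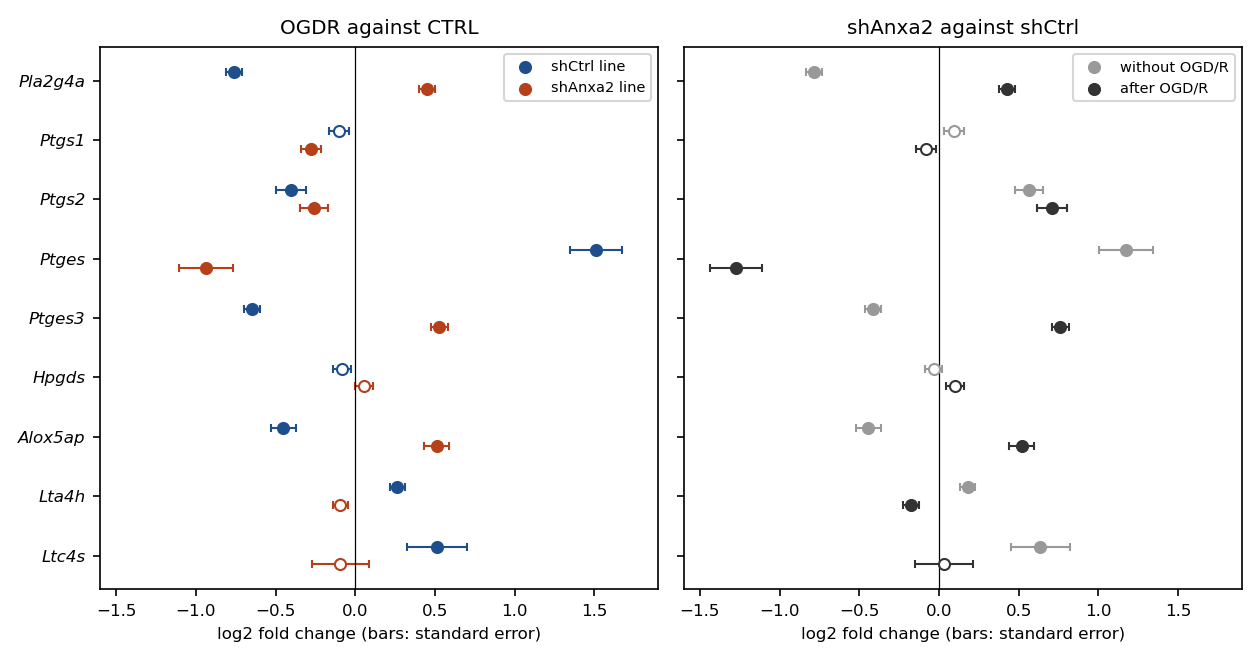
Log2 fold change with its standard error for the 9 tested genes after OGD/R in each line (left) and for shAnxa2 against shCtrl cells without and after OGD/R (right), with filled points at an adjusted p under 0.05. Pla2g4a, Ptges, Ptges3 and Alox5ap have filled points on opposite sides of 0 in both panels, and Ptgs2 has both filled points on the same side in each.

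On the leukotriene side, Alox5 encodes 5-lipoxygenase, the enzyme that makes leukotriene A4 (ENSMUSG00000025701, chromosome 6, 116387038 to 116438139, minus strand). It had 4, 11 and 5 counts in shCtrl-CTRL, 2, 6 and 3 in shCtrl-OGDR, 2, 5 and 3 in shAnxa2-CTRL and 4, 3 and 4 in shAnxa2-OGDR, 52 counts in all. It did not pass the filter and was not tested, and at this depth a difference between groups was not detectable. Fitted without the filter, its lowest adjusted p over the 5 comparisons was 0.511 with edgeR and 0.505 with DESeq2.

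Alox5ap encodes FLAP, the membrane protein that presents arachidonic acid to 5-lipoxygenase (ENSMUSG00000060063, chromosome 5, 149201577 to 149224963, plus strand). It was at 49.9, 47.3 and 52.6 CPM in shCtrl-CTRL, 36.2, 38.2 and 35.0 in shCtrl-OGDR, 31.2, 37.5 and 41.3 in shAnxa2-CTRL and 52.4, 50.04 and 54.8 in shAnxa2-OGDR. The untreated shCtrl and treated shAnxa2 libraries overlapped each other and lay above the other 6, the reverse of the grouping of Ptges. OGD/R lowered Alox5ap in shCtrl cells (-0.45 ± 0.08, adjusted p = 1.64e-05) and raised it in shAnxa2 cells (0.51 ± 0.08, adjusted p = 5.75e-06). Knockdown lowered it without OGD/R (-0.44 ± 0.08, adjusted p = 2.70e-05) and raised it after OGD/R (0.52 ± 0.08, adjusted p = 2.17e-06), with an interaction of 0.96 ± 0.11 (adjusted p = 2.77e-08). Of its 1420 exon bases, 189 are shared with the antisense gene Gm19719.

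Lta4h encodes leukotriene A4 hydrolase, which makes leukotriene B4 (ENSMUSG00000015889, chromosome 10, 93289273 to 93320737, plus strand). It was at 72.6, 72.8 and 71.7 CPM in shCtrl-CTRL, 86.9, 86.7 and 86.8 in shCtrl-OGDR, 78.7, 82.3 and 85.1 in shAnxa2-CTRL and 76.6, 76.0 and 78.0 in shAnxa2-OGDR. Replicates lay close together and no groups overlapped, while the differences were small. OGD/R raised Lta4h in shCtrl cells (0.26 ± 0.05, adjusted p = 3.39e-05), and the shAnxa2 value was -0.09 ± 0.05 (adjusted p = 0.0966). Knockdown raised it without OGD/R (0.18 ± 0.05, adjusted p = 0.00203) and lowered it after OGD/R (-0.18 ± 0.05, adjusted p = 0.00218). The interaction was -0.36 ± 0.07 (adjusted p = 4.68e-05). Neighbouring groups in the order of its means were not called different, with an adjusted p of 0.0966 to 0.17.

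Ltc4s encodes leukotriene C4 synthase, the first enzyme of the cysteinyl leukotriene branch (ENSMUSG00000020377, chromosome 11, 50127288 to 50129443, minus strand). It was at 2.30, 3.04 and 2.50 CPM in shCtrl-CTRL, 4.46, 3.28 and 3.43 in shCtrl-OGDR, 3.52, 4.52 and 4.17 in shAnxa2-CTRL and 4.34, 2.98 and 4.27 in shAnxa2-OGDR. The shCtrl-CTRL libraries had the lowest mean and overlapped only with shAnxa2-OGDR, whose replicate 2 was the lowest outside them, and the other 3 groups overlapped each other. With 55 to 114 counts per library, Ltc4s rose after OGD/R in shCtrl cells (0.51 ± 0.19, adjusted p = 0.0204) and with knockdown without OGD/R (0.64 ± 0.19, adjusted p = 0.00516). The other values were -0.09 ± 0.18 for OGD/R in shAnxa2 cells (adjusted p = 0.689) and 0.03 ± 0.18 for knockdown after OGD/R (adjusted p = 0.884). The interaction of -0.60 ± 0.26 was near the threshold (adjusted p = 0.043). The rise after OGD/R was lost without shCtrl-OGDR replicate 1 (0.36, adjusted p = 0.139), shCtrl-CTRL replicate 1 (0.43, adjusted p = 0.0785) or shCtrl-CTRL replicate 3 (0.48, adjusted p = 0.056), and so was the interaction without each of these (-0.46, -0.52 and -0.58 in the same order, adjusted p up to 0.138). The interaction was also lost without shAnxa2-CTRL replicate 2 (-0.53) or 3 (-0.59) or shAnxa2-OGDR replicate 2 (-0.45, adjusted p = 0.131). Its exons share 268 of 1014 bases with the antisense gene Gm26542, whose reads cannot be separated without strand.

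Knockdown without OGD/R raised Ptgs2, Ptges, Lta4h and Ltc4s and lowered Pla2g4a, Ptges3 and Alox5ap, 7 of 9 against a background of 59.2% (29.5% higher, 29.7% lower). Knockdown after OGD/R raised Pla2g4a, Ptgs2, Ptges3 and Alox5ap and lowered Ptges and Lta4h, 6 of 9 against 67.9% (33.8% higher, 34.2% lower). The OGD/R change differed between the lines for Pla2g4a, Ptges3 and Alox5ap, which were relatively higher in shAnxa2 cells, and for Ptges, Lta4h and Ltc4s, which were relatively lower, 6 of 9 against 70.0% (34.9% and 35.1%). Between shAnxa2-OGDR and shCtrl-CTRL, which differ in line and treatment, 4 of 9 were called (Ptgs2 and Ltc4s higher, Ptgs1 and Pla2g4a lower in shAnxa2-OGDR) against 39.9% of genes. Between shAnxa2-CTRL and shCtrl-OGDR, 3 of 9 were called (Ptgs1, Ptgs2 and Ptges3, all higher in shAnxa2-CTRL) against 44.1%. Over the OGD/R comparison in each line, the knockdown comparison without and after OGD/R and the interaction, the median log2 fold change of the 9 genes lay between -0.10 and 0.13, and that of all genes tested between -0.0061 and 0.0045. The comparisons share groups of libraries, so their calls are not independent of each other.

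Around the members, 84 further genes of the table belong to 8 lists of the eicosanoid pathways, and 49 passed the filter. After OGD/R, 18 rose and 13 fell in shCtrl cells, and 11 rose and 17 fell in shAnxa2 cells. With knockdown, 21 rose and 11 fell without OGD/R, and 13 rose and 25 fell after it. The OGD/R change differed between the lines for 36 of them, with 14 relatively higher and 22 relatively lower in shAnxa2 cells. The share called was 63.3% and 57.1% for OGD/R in shCtrl and shAnxa2 cells, 65.3% and 77.6% for knockdown without and after OGD/R and 73.5% for the interaction, against 63.4%, 55.0%, 59.2%, 67.9% and 70.0% of all genes tested. Genes are named from each list by the size of that difference, up to 2 per direction, among those with a called difference and a mean of at least 1 CPM. In arachidonate release and in prostanoid receptors, a gene below that mean had a larger positive difference (3.87 and 2.11) than those named.

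Among 10 tested genes of arachidonate release, 4 rose and 4 fell after OGD/R in shCtrl cells, where 32.4% of all genes tested rose and 31.0% fell. Faah, which degrades the endocannabinoid anandamide to arachidonic acid, was at 10.6 CPM on average in shCtrl-CTRL, 27.7 in shCtrl-OGDR, 28.5 in shAnxa2-CTRL and 14.8 in shAnxa2-OGDR, with an interaction of -2.33 ± 0.12 (adjusted p = 2.80e-14). Pla2g6, a calcium-independent phospholipase, had an interaction of -0.91 ± 0.09. Daglb, a diacylglycerol lipase, and Pla2g5, a secreted phospholipase, had interactions of 0.62 ± 0.09 and 0.48 ± 0.11, the direction of Pla2g4a. The release step thus held genes of both directions, as did all genes tested (interaction called higher in 34.9% and lower in 35.1%). The list for the return of arachidonate to phospholipids had 10 tested genes, whose selectivity for arachidonate was not examined. Of these, Lpcat4 (interaction 1.06 ± 0.09) and Mboat1 (1.01 ± 0.10) were relatively higher in shAnxa2 cells. Lpcat2 (-1.17 ± 0.12) and Acsl5 (-0.43 ± 0.07) were relatively lower. Lpcat2, an acyltransferase that also makes platelet-activating factor, rose with knockdown without OGD/R from 13.6 to 40.1 CPM (1.57 ± 0.08, adjusted p = 8.55e-14).

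Among 6 tested further prostanoid synthases, Cbr1, a carbonyl reductase, had the only called interaction of this list (-0.64 ± 0.09, adjusted p = 5.39e-07). For prostaglandin export and breakdown, 4 genes were tested and all 4 interactions were called, where 70.0% of all genes tested were. Zadh2 (-1.25 ± 0.10) and Ptgr1 (-0.62 ± 0.11), which are prostaglandin reductases, were relatively lower in shAnxa2 cells, and Abcc4, an exporter of prostaglandins, was relatively higher (0.33 ± 0.07). Knockdown after OGD/R raised Abcc4 from 90.8 to 130 CPM (0.51 ± 0.05, adjusted p = 1.68e-09) and lowered Zadh2 (-0.37 ± 0.07, adjusted p = 5.83e-05).

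Of the 12 tested genes of other lipoxygenases and leukotriene processing, Cyp4f18 (0.95 ± 0.31) and Alox15, the 12/15-lipoxygenase (0.95 ± 0.26), were relatively higher and Dpep2 (-1.68 ± 0.47) and Cyp4f13 (-1.39 ± 0.25) relatively lower in shAnxa2 cells. These were low genes, and the Dpep2 name is carried by more than 1 gene of the table. Per length, group means of Alox15 ran from 0.950 CPM per kilobase in shCtrl-OGDR to 1.74 in shAnxa2-OGDR, against 0.0371 to 0.0612 for Alox5. In the epoxide branch, Ephx1, an epoxide hydrolase, was the 1 gene of 5 that passed the filter, and its interaction was -2.04 ± 0.09 (adjusted p = 8.49e-16).

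Receptors for these lipids were few in BV2 cells. Of 9 prostanoid receptors, 4 were tested. Ptgir, the prostacyclin receptor, was at 50.1, 50.1 and 47.6 CPM in shCtrl-CTRL, 120, 104 and 113 in shCtrl-OGDR, 84.1, 82.3 and 82.3 in shAnxa2-CTRL and 52.3, 52.0 and 54.1 in shAnxa2-OGDR. Its groups did not overlap, and treated shCtrl cells were the highest. OGD/R raised Ptgir 2.27-fold in shCtrl cells (1.19 ± 0.05, adjusted p = 5.11e-15) and lowered it 1.57-fold in shAnxa2 cells (-0.65 ± 0.06, adjusted p = 8.59e-10), an order like that of Ptges. Ptger4, the EP4 receptor for prostaglandin E2, had an interaction of 0.33 ± 0.09 (adjusted p = 0.00192) and was lowest in shAnxa2-CTRL at 35.2 CPM. Of 8 leukotriene and lipoxin receptor genes, 2 were tested, and Cmklr1, a receptor for chemerin and resolvin E1, had the called interaction (-0.99 ± 0.26, adjusted p = 0.00174).

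The genes whose levels ran most like each member were taken by Pearson correlation of log2(CPM + 0.1) over the 12 libraries, among the 10741 tested genes averaging 1 CPM or more. As the libraries fall into 4 groups, these values mostly describe shared group means and carry no test. For Ptges the closest were Rpl3 (r = 0.982), Lix1l (0.981) and Usp22 (0.977). For Ptges3 they were Ctcf (0.995), Prkar2a (0.992) and Dtl (0.991), for Pla2g4a Id3 (0.989), Wdr1 (0.988) and Rassf2 (0.983), and for Alox5ap Jpt1 (0.980), Tas1r3 (0.971) and Ccna2 (0.970). For Lta4h they were Lmo4 (0.976), Pyroxd2 (0.975) and Pcnx (0.973). Ptgs2 had as its closest Prpf38a (0.953), Aasdhppt (0.949) and Pilra (0.948), and Pilra, an inhibitory receptor of myeloid cells, was likewise highest in shAnxa2-CTRL at 34.5 CPM and lowest in shCtrl-OGDR at 13.4. The values for Ltc4s, Hpgds and Ptgs1 were lower, at up to 0.907, 0.896 and 0.847 with Trabd, Kcnk4 and Ss18l2.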

How the data were processed

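RNA of 12 BV2 libraries, 3 in each of the 4 groups named in the sample titles, was analysed from 1 deposited table. The authors deposited raw read counts for 21834 protein-coding genes, and HISAT2 2.0.4 and mm39 are named in the submitters' processing notes. The counting tool and its strand setting for these libraries are not given in the sources used here. The table's 12 further per-sample columns, the same counts divided by 1 factor per library, were not used. Total counts ranged from 19521877 to 27288843, and within groups replicates differed by more than counting error (chi-square per gene 4.00 to 13.3). No pair of libraries in a group had identical counts. These checks cannot tell separate cultures from repeat libraries of the same culture. The study's methods call the 3 libraries of a group biological replicates, each made up of 3 technical replicates. They do not say how cultures were separated, so p-values measure the spread between these libraries.

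Genes with at least 0.5 CPM in at least 3 libraries (11626) were normalized by TMM and fitted in 1 quasi-likelihood model with edgeR 4.0.16 in R 4.3.3, with Benjamini-Hochberg adjustment over all of them. The standard error is the size of the log2 fold change over the root of its F statistic. Levels per length used the exon union of GENCODE M21 (GRCm38), whose coordinates were not mixed with those of the table. Near copies were searched with BLAST 2.17.0 (at least 100 bases at 95% identity). The members and lists were chosen with earlier results of these data known. Named genes are all members, Anxa2, up to 2 genes per direction and pathway list with the largest called interaction and a mean of at least 1 CPM, and the 3 genes most like each member. The promoter examples, the 2 comparisons between groups that differ in both factors, Gm genes, Ptges2, Ptges3-ps, Lars2, Mtif2, Sirt5 and the cell markers named were added after values were seen. Alternatives were other size factors, no filter or a filter of 1 CPM, DESeq2 1.42.0, voom of limma 3.58.1, fits of only the groups compared, the replicate block, a fold limit and leaving out each library. The steps were tested on simulated counts. One further marker list is not reported here. Python 3.11.15 with pandas 2.3.3, numpy 2.4.6 and matplotlib 3.10.9 made the tables and plots.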

Additional observations from a re-analysis of the deposited data

Results flagged for a closer look

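The OGD/R change differed between the lines, by the interaction term of the edgeR model, for 6 of the 9 tested members against a background of 70.0% of genes. The value, shAnxa2 minus shCtrl on the log2 scale, was -2.44 for Ptges, 1.21 for Pla2g4a, 1.17 for Ptges3, 0.96 for Alox5ap, -0.60 for Ltc4s and -0.36 for Lta4h. In Ptges, Pla2g4a, Ptges3 and Alox5ap the OGD/R effect was called in each line with opposite sign, as it was in 44.4% of all genes tested. In Lta4h and Ltc4s it was called in shCtrl cells, and the shAnxa2 value did not pass the test.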

How the results depend on the processing

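Fewer members were called under an unadjusted p below 0.05 with a log2 fold change of at least 1. Most changes were smaller than this limit. After OGD/R, 1 was called in shCtrl cells (6.86% of all genes tested) and 0 in shAnxa2 cells (3.80%). In shAnxa2 cells, 6 members had an unadjusted p under 0.05 by edgeR before the fold limit. Knockdown gave 1 without OGD/R (5.81%) and 1 after it (10.2%), and the interaction gave 3 (21.7%). Leaving out each library in turn gave 6 to 8, 5 to 6, 7 throughout, 6 to 7 and 5 to 9 members in the same order. The 9 came without shAnxa2-OGDR replicate 3, when Ptgs1, Ptgs2 and Hpgds were added. No share of all genes is given for these fits, so their counts of members cannot be set against a background. Of 846 values of single genes under the alternatives other than the fold limit, 818 kept direction and side of the threshold, 13 lost the call, 9 gained one and 6 changed sign, none of the last being called. These were Hpgds after OGD/R in shAnxa2 cells without shAnxa2-OGDR replicate 1 (range over single libraries left out -0.020 to 0.12), Ltc4s in that comparison without shAnxa2-OGDR replicate 2 (range -0.18 to 0.071), and Ltc4s with knockdown after OGD/R without shCtrl-OGDR replicate 2 or 3 or shAnxa2-OGDR replicate 1 or 3 (range -0.060 to 0.19).

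The Ltc4s interaction was also lost with DESeq2 (adjusted p = 0.083) and with the replicate block (-0.60, adjusted p = 0.0536). The block fit left 5 members called, and no share of all genes is given for it either. Libraries of the same replicate number shared little deviation from their group means, with 1 of 18 correlations over genes above 0.1 (range -0.051 to 0.135). Between libraries of different numbers the range was -0.099 to 0.082. Whether cultures of the same number were handled together cannot be told from these values. The block changed no other call of a member. The cause of the lost calls was not tested. Counts per library were 2 to 11 for Alox5, 48 to 161 for Ptges and 55 to 114 for Ltc4s, against at least 472 for the other members.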
